A study of Mus musculus with 6 samples.

Results

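The neutrophil attractant genes Cxcl1, Cxcl2, Cxcl3 and Cxcl5, the receptor genes Cxcr2 and Csf3r, and the calprotectin and granule genes S100a8, S100a9, Ngp and Ltf were examined in NG2+ cells sorted from mouse tumors that overexpressed FGF-2 and from vector tumors. These 10 genes were listed by name, and all 10 were found among the 22180 genes of the arrays, each measured by a single probe set annotated to that gene alone. Cells of the mouse fibrosarcoma line T241 that stably expressed human FGF-2 together with GFP were injected under the skin of the back of C57BL/6 mice, and T241 cells with the empty vector and GFP served as control. The mice used in the study were 6 to 8 weeks old females, tumors were of similar size at isolation, and NG2+EGFP− cells were sorted by flow cytometry after collagenase digestion, so that GFP-marked tumor cells should be left out. There were 3 biological samples from FGF-2 tumors and 3 from vector tumors, each on 1 Affymetrix 2.0 ST mouse gene array, and the sources do not say whether a sample pools several mice. The sample labels and the methods describe cells sorted from tumors, as given here, whereas legends in the study call the array samples primary pericytes treated with FGF-2 or vehicle, a difference that the sources do not settle. Both tumor types came from a single line, and human FGF-2, made by the tumor cells that the sort leaves out, was not checked here.

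CXCL1, CXCL2, CXCL3 and CXCL5 are CXC chemokines that act on the receptor CXCR2, through which neutrophils leave the blood and enter inflamed tissue. Their genes are switched on quickly by IL-1, TNF and microbial products through NF-κB, in stromal cells as well as in macrophages. G-CSF, through its receptor encoded by Csf3r, drives the making and release of neutrophils. S100A8 and S100A9 form calprotectin, the most abundant protein of the neutrophil cytosol, while lactoferrin (Ltf) and neutrophilic granule protein (Ngp) are cargo of the secondary granules and are transcribed mainly by precursors in bone marrow.

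In NG2+ cells of FGF-2 tumors Cxcl3 fell to 41.2% of the level in vector tumors (95% interval 30.7 to 55.5%), and it was the only one of the 10 genes past the threshold. Cxcl2 and Cxcl1 had lower values in every FGF-2 array than in any vector array without passing the test, and Cxcl5 had not. The granule genes Ngp and Ltf and the calprotectin gene S100a8 had low signals in both groups that overlapped. Of the 10 genes 1 was called lower and 0 higher at a limma adjusted p under 0.05 over all genes, where 0.284% of all genes were called lower, 1.03% higher and 1.31% either way. The groups did not overlap for 4 genes with lower values in FGF-2 tumors and for 1 gene with higher values, against 9.93% and 11.3% of all genes. The mean was lower in FGF-2 tumors for 8 of the 10 genes and higher for 2, against 54.2% and 45.8% of all genes. Their median log2 fold change was -0.23, beside -0.02 over all genes.

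The 4 attractant genes lie close together on mouse chromosome 5, in the order Cxcl5 (chr5:90759298-90761625), Cxcl3 (chr5:90786101-90788093), Cxcl1 (chr5:90891245-90893121) and Cxcl2 (chr5:90903899-90905938), in coordinates of the RefSeq annotation of GRCm38.p6. RefSeq promoter windows, from 250 bases before to 50 bases after the start, were at hand for 9 of the 10 genes, and Cxcl5 was the gene without one. The windows of Cxcl1, Cxcl2 and Cxcl3 are shown because these are the attractant genes whose groups did not overlap and because they share a site. All 3 windows are on the plus strand of GRCm38.p6, and capitals mark matches to the NF-κB consensus on either strand.
Cxcl1 (chr5:90890995-90891294): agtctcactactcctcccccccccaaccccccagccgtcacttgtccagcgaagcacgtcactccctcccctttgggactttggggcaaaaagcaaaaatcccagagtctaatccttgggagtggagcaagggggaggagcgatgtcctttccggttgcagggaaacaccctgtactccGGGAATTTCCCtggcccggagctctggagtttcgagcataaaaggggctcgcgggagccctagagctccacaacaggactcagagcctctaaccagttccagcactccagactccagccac
Cxcl2 (chr5:90903649-90903948): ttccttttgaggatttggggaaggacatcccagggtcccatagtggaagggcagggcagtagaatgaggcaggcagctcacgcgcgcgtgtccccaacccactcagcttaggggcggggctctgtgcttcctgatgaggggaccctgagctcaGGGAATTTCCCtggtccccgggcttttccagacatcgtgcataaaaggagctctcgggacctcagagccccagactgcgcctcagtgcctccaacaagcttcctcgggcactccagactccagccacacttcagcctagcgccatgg
Cxcl3 (chr5:90785851-90786150): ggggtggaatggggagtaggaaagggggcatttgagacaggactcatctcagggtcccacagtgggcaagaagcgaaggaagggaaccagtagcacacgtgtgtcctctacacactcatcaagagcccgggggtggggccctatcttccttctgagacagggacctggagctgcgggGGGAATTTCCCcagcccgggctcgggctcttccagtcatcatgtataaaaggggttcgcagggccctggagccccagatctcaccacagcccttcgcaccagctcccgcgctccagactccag

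In each of the 3 windows the capitals spell GGGAATTTCCC, which matches the consensus once on each strand, shifted by 1 base, and is thus 1 site. Its first base lies at -71 in Cxcl1, at -97 in Cxcl2 and at -73 in Cxcl3, counted from the start site. The NF-κB consensus, searched on both strands, was found in 8.46% of all 32851 promoter windows and the full run GGGAATTTCCC, searched on both strands after it had been seen in these genes, in 14 windows (0.0426%), 3 of which belong to Cxcl1, Cxcl2 and Cxcl3. Among the other members only Csf3r had a match to the NF-κB consensus, a different one at -129 on the minus strand. The Csf3r window (chr4:126024409-126024708) lies within the annotated gene (chr4:126023441-126044975), so this position is counted from a start inside the gene. The C/EBP motif TTNNGNAA, searched on both strands, was in the windows of Cxcl2, S100a8, S100a9, Ngp and Ltf, that is 5 members, and in 40.7% of all windows. TATAAA, searched on both strands, was in the windows of Cxcl3, S100a8 and S100a9 and in 13.6% of all windows, and the AP-1 motif TGANTCA, searched on both strands, was in 0 of the members' windows and in 7.81% of all. A match to letters is a description of the sequence and not a measurement of binding.

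Values below are log2 expression levels as deposited, which ran from 1.95 to 13.42 over the 33793 probe sets, with array medians over the genes of 5.43 to 5.48. Array pairs correlated at 0.983 to 0.994, and the arrays of 0 pairs were identical. The brightness of a probe set depends on its sequence as well as on the amount of RNA, so each gene is set only against itself in the other group. No background level comes with the values. As a view of dim signals, chosen after the values had been seen, 1105 olfactory receptor genes, which are not thought to be active in these cells, had 6-array means with a median of 3.04 and a 95th percentile of 4.97. Cxcl5, S100a8, S100a9, Ngp and Ltf had means under that percentile, so small differences in these 5 genes stand on dim signals. Cxcr2 lay just above it at 5.16. The highest olfactory receptor mean was 7.65, and only Cxcl2 and Csf3r had means above that. In a sorted population, fewer cells of a type and less RNA per cell cannot be told apart.

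Cxcl3, a ligand of CXCR2, had levels of 5.69, 5.59 and 5.34 in the FGF-2 tumor arrays, against 7.22, 6.81 and 6.43 in the vector tumor arrays. The highest FGF-2 array lay below the lowest vector array, and the means were 5.54 ± 0.18 in FGF-2 tumors and 6.82 ± 0.39 in vector tumors (SD, n = 3 per group). On the log2 scale the difference was -1.28 (SE 0.19, limma adjusted p = 0.0140 over 22180 genes), which ranked 17 among all genes by size of fall. In the exact two-sided permutation test p was 0.1, the smallest that 3 arrays against 3 allow. Cxcl3 did not pass when any single FGF-2 array was left out (adjusted p = 0.0540 to 0.0644 from limma), nor by the methods' t-test (adjusted p = 0.236 across all genes, where limma is the main test), while its log2 fold change stayed between -1.47 and -1.08 whichever array was left out.

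Cxcl2, known as macrophage inflammatory protein 2, had levels of 7.65, 7.68 and 6.88 in FGF-2 tumors, against 9.18, 8.05 and 8.05 in vector tumors. The spread was wide in both groups, with vector replicate 1 far above the other vector arrays and FGF-2 replicate 3 below the other FGF-2 arrays. Means were 7.40 ± 0.45 in FGF-2 tumors and 8.42 ± 0.65 in vector tumors (SD, n = 3 per group), which is -1.02 on the log2 scale (95% interval -1.73 to -0.32, adjusted p = 0.176 by limma). Without vector replicate 1 the log2 fold change was -0.65, the one closest to 0 among the leave-one-out values. The unadjusted p of Cxcl2 was 0.00950 and that of Cxcl1 0.00712 from limma, while 6.48% of all genes had an unadjusted p under 0.05 with a lower mean in FGF-2 tumors.

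Cxcl1, the attractant first described as KC in mouse cells, had levels of 5.36, 5.50 and 5.50 in FGF-2 tumors, against 6.05, 5.79 and 5.75 in vector tumors. The groups did not overlap, but the step between them was smaller than for Cxcl2 and Cxcl3, with means of 5.45 ± 0.08 in FGF-2 tumors and 5.86 ± 0.16 in vector tumors (SD, n = 3 per group). That is -0.41 on the log2 scale with an SE of 0.12 (limma adjusted p = 0.156). Cxcl5, which is made by epithelial and stromal cells, had levels of 4.997, 4.89 and 4.70 in FGF-2 tumors, against 5.12, 5.11 and 4.67 in vector tumors. The groups overlapped, and the lowest array of all was a vector one. Its log2 fold change of -0.11 had a 95% interval of -0.44 to 0.23 (adjusted p = 0.798 from limma), an interval of a dim signal that bounds the change in signal only. A difference between the fold changes of the 4 attractants was not tested. Cxcl1, Cxcl2 and Cxcl3 are close relatives in sequence, and whether their probe sets share signal was not tested.

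Cxcl3 varied with Cxcl1 and Cxcl2 from array to array. Over the 6 arrays, which include the difference between the groups, Cxcl3 correlated with Cxcl1 at 0.93 and with Cxcl2 at 0.91 (Pearson's r, a description over n = 6 arrays that share the normalization). After the mean of each group was taken out, the values were 0.63 for Cxcl3 with Cxcl1 and 0.88 for Cxcl3 with Cxcl2. Cxcl1 with Cxcl2 gave 0.85 over all arrays and 0.62 within groups. Such values were not particular to these 3 genes. Within groups Cxcl3 gave -0.91 with Ngp and 0.87 with Csf3r, and Cxcl1 gave 0.94 with S100a8. Cxcl5 gave 0.39 with Cxcl1, 0.62 with Cxcl2 and 0.58 with Cxcl3 over all arrays, and 0.30, 0.64 and 0.89 in this order within groups. Cxcl5 tracked Csf3r within the groups (0.98) and over all arrays (0.91), with vector replicate 3 the lowest vector array for both genes. Among 1075 genes with a range of at least 1 log2 unit over the arrays, those whose 6 values were most like Cxcl3 were Hipk2 (0.99), Klrb1b (0.98), Tnf (0.97), Kcnj10 (0.97) and Pdgfb (0.97), Pearson's r over 6 arrays. Of these 5, Hipk2, Klrb1b and Pdgfb fell (-1.01, -1.32 and -1.03 on the log2 scale, limma adjusted p = 0.00612, 0.00612 and 0.0341), and Tnf and Kcnj10 did not pass. Likeness to Cxcl3 over the 6 arrays includes its difference between the groups, so lower values in FGF-2 tumors were built into this choice. These p values are therefore no separate evidence of a fall. The 5 genes most like S100a8 by the same measure were Il1a, Tas2r131, Igkv8-30, Serpinb2 and Rora at 0.91 to 0.95, but S100a8 itself had a range of only 0.34 log2 units.

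**Figure D1:**
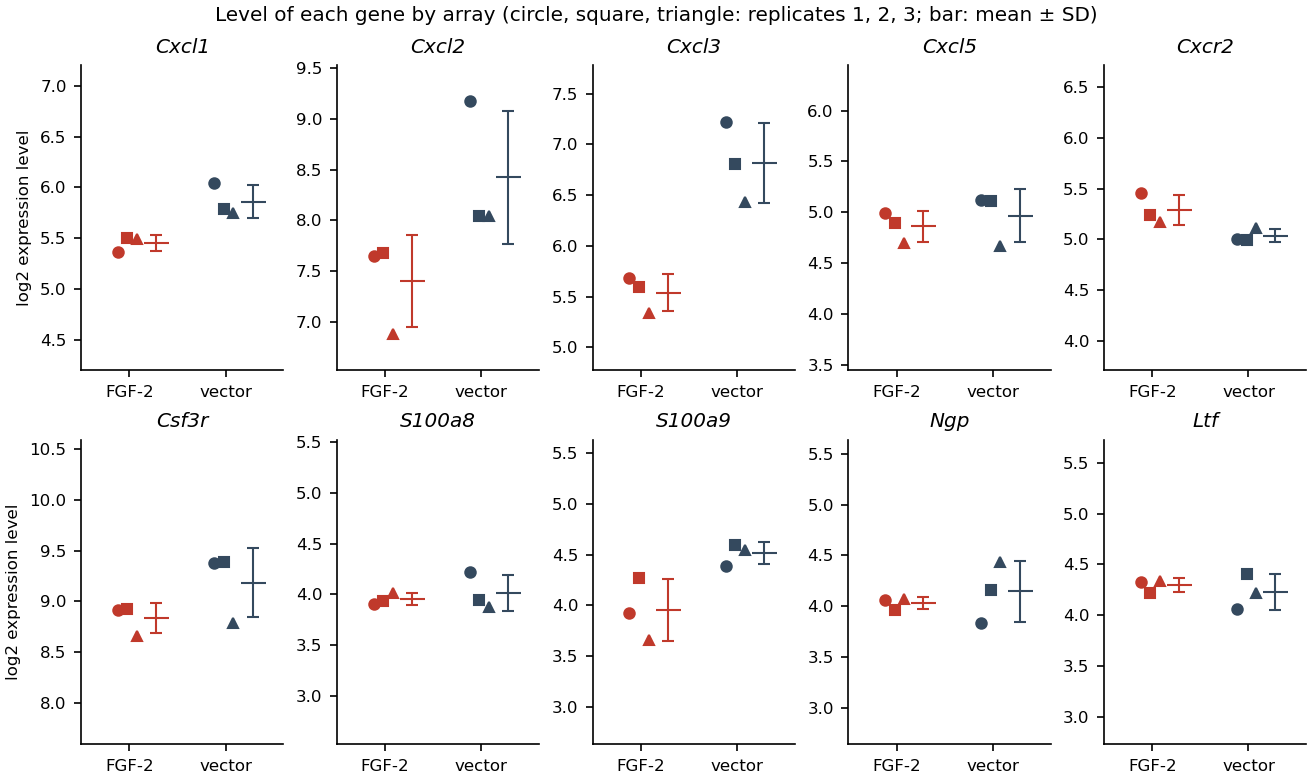
Log2 expression level of each of the 10 genes (y axis, each panel with its own offset and a span of at least 3 log2 units) in the FGF-2 tumor arrays (left, red) and the vector tumor arrays (right, dark blue), with points for replicates 1, 2 and 3 and bars for mean ± SD. For Cxcl1, Cxcl2, Cxcl3 and S100a9 every red point lies below every blue point, for Cxcr2 every red point lies above, and the other 5 genes overlap.

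The receptor genes did not pass. Cxcr2, the receptor that neutrophils use to follow these chemokines, had levels of 5.46, 5.24 and 5.17 in FGF-2 tumors, against 5.01, 4.997 and 5.11 in vector tumors. The lowest value of FGF-2 tumors was above the highest of vector tumors, opposite to Cxcl1, Cxcl2 and Cxcl3, by a small step. The log2 fold change was 0.25 (SE 0.11, adjusted p = 0.354 from limma), with a 95% interval that just reached 0 (-0.01 to 0.51). Csf3r, the G-CSF receptor gene of neutrophils and monocytes, had levels of 8.92, 8.92 and 8.66 in FGF-2 tumors, against 9.38, 9.39 and 8.79 in vector tumors. These groups overlapped because vector replicate 3 lay among the FGF-2 arrays. Its log2 fold change was -0.35 (SE 0.17, adjusted p = 0.387 from limma), and -0.55 without vector replicate 3 (adjusted p = 0.0696 from limma).

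S100a9, the larger subunit of calprotectin, had levels of 3.93, 4.27 and 3.66 in FGF-2 tumors, against 4.39, 4.60 and 4.55 in vector tumors. The groups did not overlap, with a gap smaller than the spread of the FGF-2 arrays, whose mean was 3.95 ± 0.31, beside 4.51 ± 0.11 in vector tumors (SD, n = 3 per group). Its log2 fold change was -0.56 (SE 0.16, adjusted p = 0.139 from limma). Its partner S100a8 had levels of 3.90, 3.93 and 4.02 in FGF-2 tumors, against 4.22, 3.94 and 3.88 in vector tumors. The groups overlapped and the log2 fold change was -0.06 (95% interval -0.33 to 0.21, adjusted p = 0.862 from limma), 0.04 without vector replicate 1. S100a8 and S100a9 are neighbours on mouse chromosome 3 (chr3:90669071-90670034 and chr3:90692630-90695721, GRCm38.p6). Whether their fold changes differ from each other was not tested.

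Ngp, a marker of maturing neutrophils in bone marrow, had levels of 4.06, 3.96 and 4.07 in FGF-2 tumors, against 3.84, 4.16 and 4.44 in vector tumors. Ltf, the iron-binding lactoferrin gene, had levels of 4.33, 4.22 and 4.34 in FGF-2 tumors, against 4.06, 4.41 and 4.22 in vector tumors. In both genes the FGF-2 arrays lay inside the range of the vector arrays. The log2 fold changes were -0.11 for Ngp (95% interval -0.45 to 0.23) and 0.07 for Ltf (95% interval -0.20 to 0.34), with adjusted p values of 0.783 and 0.842 from limma. Their signs turned when a single vector array was left out, to 0.033 for Ngp without vector replicate 3 and to -0.016 for Ltf without vector replicate 1.

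**Figure D2:**
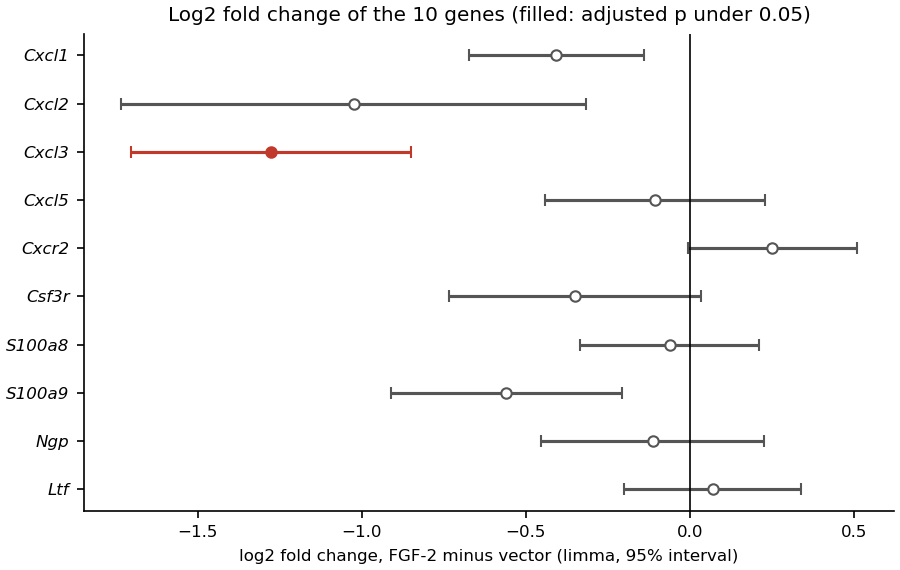
Log2 fold change, FGF-2 minus vector, of each of the 10 genes (x axis) with its 95% interval from limma. Cxcl3, at -1.28, is the filled point past an adjusted p of 0.05, and the intervals of Cxcl5, Cxcr2, Csf3r, S100a8, Ngp and Ltf include 0.

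Other granule genes went in opposite directions. Of 15 listed and measured, 3 rose, 1 fell and 11 did not pass, and the median log2 fold change was -0.01. Chil3, a chitinase-like protein of macrophages and of neutrophil granules, had levels of 7.80, 8.13 and 7.62 in FGF-2 tumors, against 5.99, 5.15 and 4.83 in vector tumors (log2 fold change 2.53, SE 0.26, adjusted p = 0.00295 from limma). Mmp8, the neutrophil collagenase, had levels of 9.79, 10.20 and 9.92 in FGF-2 tumors, against 8.85, 8.49 and 8.32 in vector tumors (log2 fold change 1.42, SE 0.16, adjusted p = 0.00412 from limma). The acute-phase gene Hp, for the hemoglobin scavenger haptoglobin, was 0.84 higher on the log2 scale (limma adjusted p = 0.0369). Lcn2, which encodes the iron-siderophore trap of neutrophil granules and of inflamed tissue, had levels of 5.71, 5.92 and 5.91 in FGF-2 tumors, against 7.18, 7.28 and 6.59 in vector tumors. Its log2 fold change was -1.17 (SE 0.18, adjusted p = 0.0149 from limma). Hp did not pass whichever array was left out, nor did Lcn2 without FGF-2 replicate 1 or 2 or vector replicate 1 (highest adjusted p = 0.116 and 0.0926 from limma).

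The defining genes of the primary granules did not follow these 4 genes. Mpo, the myeloperoxidase gene, was 4.39 ± 0.13 in FGF-2 tumors and 4.40 ± 0.05 in vector tumors, and Elane, neutrophil elastase, was 4.99 ± 0.03 in FGF-2 tumors and 5.12 ± 0.13 in vector tumors (SD, n = 3 per group). Camp, the cathelicidin of secondary granules, was 3.43 ± 0.11 in FGF-2 tumors and 3.47 ± 0.10 in vector tumors. None of these 3 genes passed (adjusted p = 0.621 to 0.975 from limma), and the 6-array means of Mpo and Camp lay among the dim signals, while Elane was just above them. Of 26 measured surface and mature neutrophil genes, 0 rose and 0 fell. Signals in this list differed widely. The neutrophil marker genes Ly6g and Retnlg had 6-array means of 3.71 and 3.18, among the dim signals, while Itgam had 11.5. Among the 26, 5 had an unadjusted p under 0.05 from limma (3 higher, 2 lower), beside 14.6% of all genes. With an array left out, 0 to 1 of the 26 were called higher and 0 to 3 lower. The largest differences among them were those of Il1r2, the decoy receptor of IL-1, with a log2 fold change of 0.94, and Mmp25, a membrane protease of neutrophils, with -0.85. Cd177, a neutrophil surface protein, had 0.72 and Clec4e, a lectin receptor of myeloid cells, had 0.60 (adjusted p = 0.159, 0.0588, 0.0617 and 0.365 from limma in this order). Among 6 transcription factors of the granulocyte line, 0 passed, with log2 fold changes of -0.35 for Cebpd, -0.23 for Spi1, 0.17 for Cebpb and -0.13 for Cebpa.

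**Figure D3:**
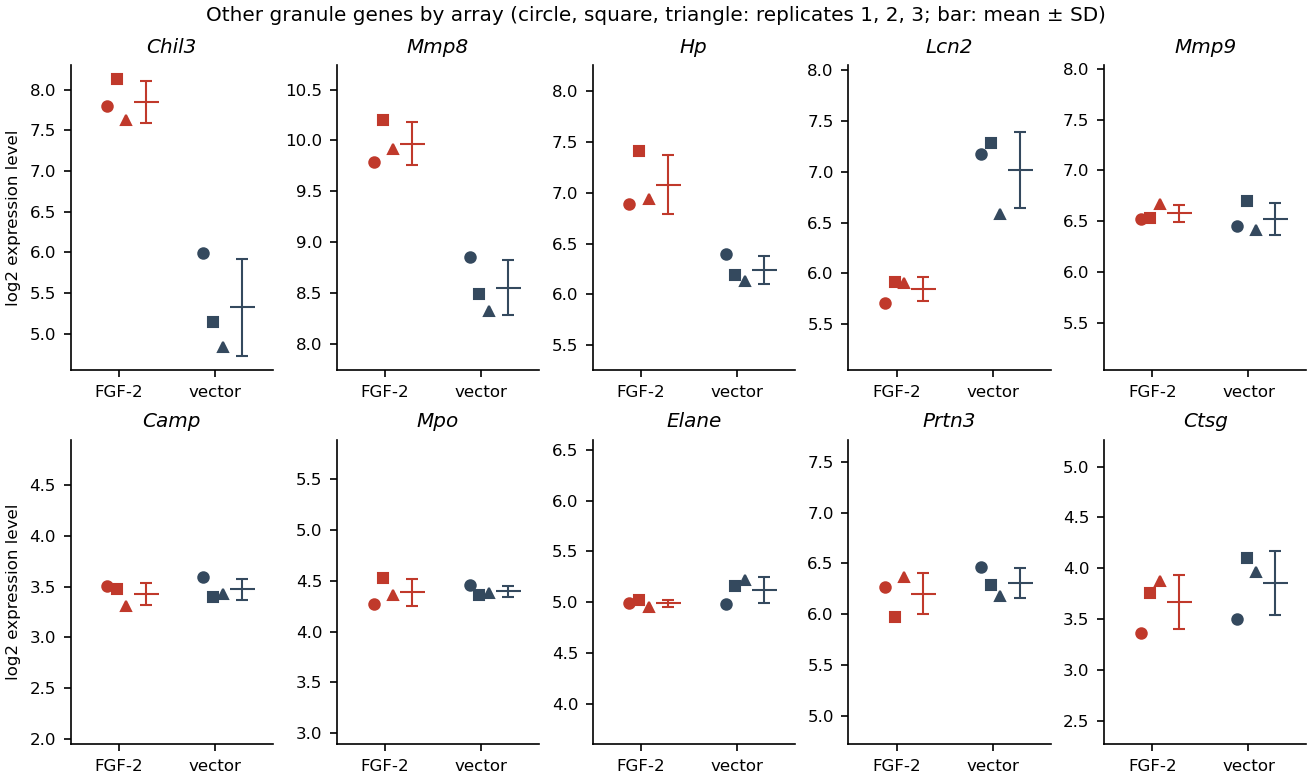
Log2 expression level (y axis, each panel with its own offset and a span of at least 3 log2 units) of 10 other granule genes in the FGF-2 tumor arrays (left, red) and the vector tumor arrays (right, dark blue), with points for replicates 1, 2 and 3 and bars for mean ± SD. Chil3, Mmp8 and Hp are higher and Lcn2 is lower in all FGF-2 arrays, and Mmp9, Camp, Mpo, Elane, Prtn3 and Ctsg overlap.

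Upstream of the attractants, the IL-1 receptor gene Il1r1 rose. It had levels of 7.95, 7.91 and 7.43 in FGF-2 tumors, against 6.15, 6.72 and 6.93 in vector tumors, which is 1.16 higher on the log2 scale (SE 0.21, limma adjusted p = 0.0340). Of 14 measured inducers and growth factors it was the 1 that rose, and 0 fell. Tnf had levels of 8.34, 8.38 and 8.18 in FGF-2 tumors, against 9.39, 9.18 and 8.63 in vector tumors, with no overlap, yet the difference of -0.77 on the log2 scale missed the threshold (limma adjusted p = 0.0867). The G-CSF gene Csf3 had levels of 4.88, 4.56 and 4.86 in FGF-2 tumors, against 5.07, 5.18 and 5.03 in vector tumors, again without overlap and without passing (-0.33 on the log2 scale, limma adjusted p = 0.260). The IL-17 receptor subunit gene Il17rc differed by 0.27 on the log2 scale (limma adjusted p = 0.608). Il1r1 did not pass without FGF-2 replicate 1 or 2 or vector replicate 1 or 2 (highest adjusted p = 0.165 from limma).

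Genes that respond to NF-κB had mostly lower means in FGF-2 tumors, as Cxcl1, Cxcl2 and Cxcl3 had. Of 22 measured, 1 fell, 0 rose and 21 did not pass, while 21 of the 22 means were lower in FGF-2 tumors (54.2% of all genes), with a median log2 fold change of -0.20 beside -0.02 over all genes. An unadjusted p under 0.05 from limma with a lower mean went with 9 of the 22, beside 6.48% of all genes. Nfkbiz, which encodes the atypical inhibitor IκBζ that NF-κB itself induces, had levels of 7.97, 8.21 and 7.58 in FGF-2 tumors, against 8.96, 9.05 and 8.71 in vector tumors (log2 fold change -0.99, SE 0.17, adjusted p = 0.0260 from limma). Ccl4 and Ccl3, attractants of monocytes and T cells, had log2 fold changes of -0.76 and -0.63 (adjusted p = 0.181 and 0.0792 from limma). Nfkbiz did not pass without FGF-2 replicate 1 or 3 or vector replicate 1 or 2 (highest adjusted p = 0.107 from limma), and with an array left out 0 to 5 of the 22 were called lower. The list shares Tnf and Il1b with the inducers and Zfp36 with the tissue dissociation genes. It was chosen with earlier results of these data known, so its counts beside those of all genes are a description and no independent test.

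Other gene lists were described in the same arrays, and they did not all move as Cxcl1, Cxcl2 and Cxcl3 did. Over all genes 0.284% were called lower, 1.03% were called higher and 54.2% had a lower mean, the shares to set beside each list here. Of 20 genes that respond to tissue dissociation, 3 fell, the heat shock genes Hspa1b and Hspa1a and the AP-1 gene Fos. Their log2 fold changes were -1.44, -1.07 and -0.72 (limma adjusted p = 0.00206, 0.00202 and 0.0208 in this order). Hspa1a passed in all 14 alternatives, Hspa1b in 13 and Fos in 9. An unadjusted p under 0.05 from limma with a lower mean went with 11 of the 20, beside 6.48% of all genes. In this list 0 rose and 19 had a lower mean in FGF-2 tumors. The early response gene Egr1 differed by -1.13 on the log2 scale without passing (limma adjusted p = 0.0640). With an array left out, 2 to 4 of the 20 were called lower. The mean level of these 20 genes ran from 8.56 to 8.63 in FGF-2 tumors and from 8.88 to 9.25 in vector tumors, with no overlap. The mean level of 20 macrophage and monocyte markers ran from 10.41 to 10.50 in FGF-2 tumors and from 10.31 to 10.77 in vector tumors. The groups overlapped because of vector replicate 3 (10.31), while vector replicates 1 and 2, at 10.74 and 10.77, lay above every FGF-2 array. A lower mean in FGF-2 tumors went with 14 of the 20 markers and a higher one with 6, and the median log2 fold change was -0.16. Of these 20 markers 2 fell, the chemokine receptor gene Cx3cr1 and the lysozyme gene Lyz1, and 0 rose. Of the fits with 1 array left out, both passed only in the one without vector replicate 3 (highest adjusted p = 0.152 for Cx3cr1 and 0.198 for Lyz1 from limma), and Lyz1 also missed with arrays centred on their medians (adjusted p = 0.0566 from limma). With an array left out, 0 to 3 of the 20 markers were called lower. Apoe and Mrc1 differed by -0.82 and 0.45 on the log2 scale without passing. For 14 pericyte and smooth muscle markers, of which 6 rose and 0 fell, the mean level ran from 6.77 to 7.14 in FGF-2 tumors and from 5.97 to 6.18 in vector tumors. The 6 were Rgs5, Abcc9, Acta2, Mcam, Ndufa4l2 and Kcnj8, at 0.80 (Kcnj8) to 3.11 (Rgs5) on the log2 scale, and 3 to 7 markers passed with an array left out. For 12 fibroblast markers, of which 8 rose and 0 fell, it ran from 8.33 to 8.82 in FGF-2 tumors and from 6.76 to 7.47 in vector tumors. The 8 were Lum, Dcn, Postn, Mfap5, Thy1, Fn1, Fap and Col3a1, at 1.12 (Col3a1) to 3.52 (Lum) on the log2 scale, and 3 to 8 markers passed with an array left out. The endothelial marker Emcn and the eosinophil marker Ccr3 rose too (1.15 and 1.42 on the log2 scale, limma adjusted p = 0.0363 and 0.0429). Each was the only one of its list past the threshold, and with an array left out 0 or 1 of each list passed. The mean was higher in FGF-2 tumors for 11 of 12 endothelial markers (median log2 fold change 0.25). For mast cell, basophil and eosinophil markers it was higher for 6 of 9 (median 0.07), beside 45.8% of all genes. Macrophage markers were bright in all 6 arrays of cells sorted as perivascular, with Cd68 at 12.32 in FGF-2 tumors and 12.49 in vector tumors on average. The part of dissociation, of macrophages and of mural cells or fibroblasts in the values of the 10 genes was not tested. Among other CXCR2 axis genes, 0 of 5 passed. Pf4, a platelet chemokine that lacks the ELR motif of CXCR2 ligands, had a log2 fold change of 0.34, and the CXCR2 ligand gene Ppbp had -0.01 with a wide spread (8.32 to 9.14 in FGF-2 tumors and 8.25 to 9.68 in vector tumors). Ackr1, Cxcr1 and Cxcl15 had 0.12, -0.03 and 0.03. Of 11 other S100 genes and calprotectin receptor genes 0 passed, with log2 fold changes of 0.41 for Cd33, -0.35 for S100a11, 0.26 for S100a4 and -0.23 for S100a1.

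**Figure D4:**
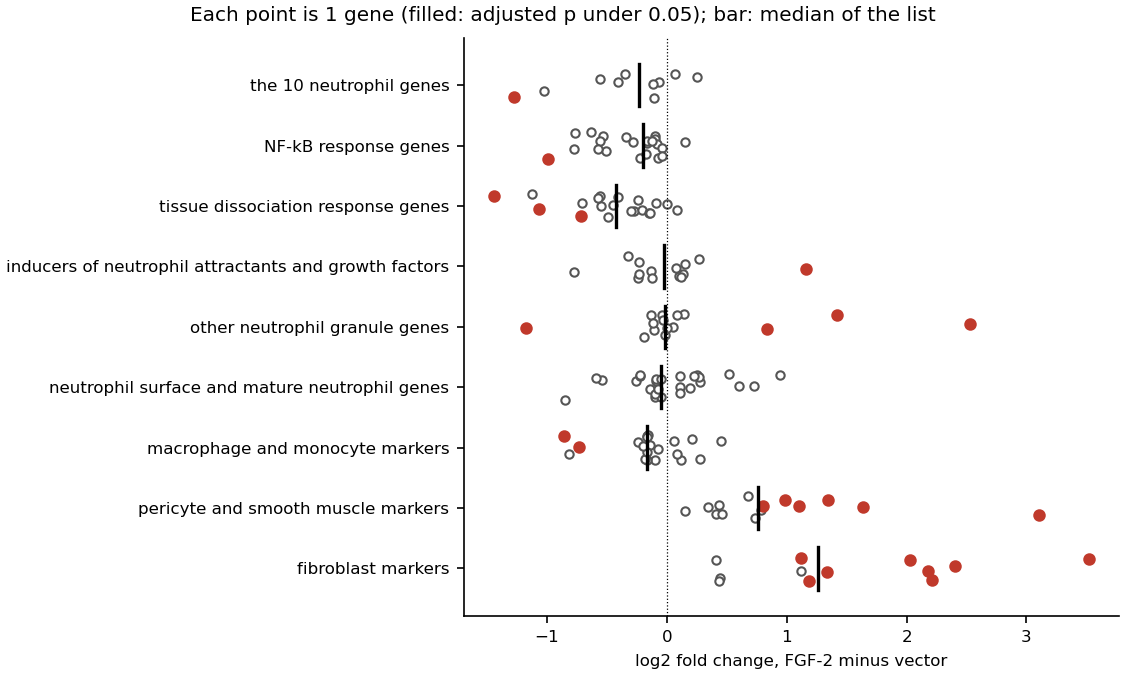
Log2 fold change, FGF-2 minus vector (x axis), of every measured gene in 9 lists (rows), with filled points for genes past an adjusted p of 0.05 and a bar at the median of each list. The 10 neutrophil genes have a median of -0.23, the NF-κB response genes -0.20 and the tissue dissociation genes -0.43, while pericyte and fibroblast markers have medians of 0.76 and 1.26.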

How the data were processed

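NG2+EGFP− cells in 3 samples from FGF-2 and 3 from vector T241 tumors were profiled on Affymetrix 2.0 ST mouse gene arrays. A contract laboratory hybridized, scanned and normalized the arrays. The submitters' processing notes name Affymetrix Expression Console, and its version and summary method are not given in the sources used here. The deposited table holds log2 values for each probe set. Normalization between arrays can remove differences shared by most genes, and background signal can make the changes of dim probe sets look smaller. Among 33793 probe sets, 1 gene was annotated to 23521, more than 1 to 1820 and none to 8452. The brightest of each gene by 6-array mean represented 22180 genes.

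FGF-2 and vector arrays were compared with limma 3.58.1 in R 4.3.3 (two-sided), with Benjamini-Hochberg adjustment over all genes and a threshold of 0.05. The fit was tested on simulated data. Exact permutation tests used SciPy 1.17.1. Promoters and loci came from RefSeq (GRCm38.p6), whose gene table matched the identifiers of 21994 genes.

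The members and the gene lists were chosen with earlier results of these data known, so their counts beside those of all genes are descriptions. Besides the 10 members, genes named are those past the threshold in each list, then the largest differences up to 4 per list, except that lists of other cell types with fewer than 4 genes past the threshold are mostly given by counts, defining cell type markers and the 5 genes most like Cxcl3 and S100a8. Lists of endothelial, T and NK cell, B cell, platelet and red cell, and mast cell, basophil and eosinophil markers had 1, 0, 0, 0 and 1 gene that rose and 0 that fell in each. Listed genes without a probe set annotated to that symbol alone were not analysed here. Alternatives were a replicate block, further quantile normalization, median centring, a minimum mean of 5, averaging over probe sets of a gene, a trended robust prior, array weights, the methods' t-test and each array left out. The methods' t-test is the unpaired two-tailed test that the study names. As only 3 arrays per group were measured, their number limits the precision.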

Additional observations from a re-analysis of the deposited data

How the results depend on the processing

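The direction of Cxcl1, Cxcl2, Cxcl3, Cxcl5, Cxcr2, Csf3r and S100a9 was the same under every alternative that could be fitted, while 3 dim genes turned in sign with an array left out. Their log2 fold changes then ran from -0.13 to 0.04 for S100a8 (0.04 without vector replicate 1), from -0.27 to 0.033 for Ngp (0.033 without vector replicate 3) and from -0.016 to 0.16 for Ltf (-0.016 without vector replicate 1). Genes with a mean under 5 could not be fitted in the test restricted to brighter genes. Of the 10 genes, 1 was called lower in the main comparison, 0 by the methods' t-test and 2 with the replicate number as a block, where Cxcl2 passed (adjusted p = 0.0386 from limma) beside Cxcl3. With an array left out the count was 0 to 1 for lower and 0 to 0 for higher calls. Over all genes, 228 higher and 63 lower calls became 362 and 132 with the replicate block, 394 and 160 with array weights, and 0 and 2 by the methods' t-test, and with an array left out 65 to 280 and 10 to 159. Same-numbered arrays of the 2 groups deviated together with correlations of -0.02, 0.19 and 0.26 for replicates 1, 2 and 3. Differently numbered arrays gave -0.26 to 0.13, so the values of replicates 2 and 3 were the highest of all. The check does not decide whether the numbers pair the samples. The main comparison took them as unpaired because the labels and methods name no pairing. The cause of the differences between the alternatives was not tested. Dim signals limit what can be said of S100a8, S100a9, Ngp, Ltf and Cxcl5, and Cxcr2 was just above them.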
